A study of Caenorhabditis elegans with 6 samples.

Results

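The genes described here carry the class names ssp, ssq, sss, nspd, spch and smz, 6 small families of Caenorhabditis elegans named for sperm or for nematode-specific peptides. They were picked by gene symbol, in a choice made with earlier results of these data known. This gave 35 genes of the 46769 in the deposited gene table: 12 ssp, 12 nspd, 4 ssq, 3 spch, 2 smz and 2 sss genes. Their RNA was measured in whole hermaphrodite cultures of mixed age, in 3 libraries of the strain plp-1(ok2155), labelled as a loss-of-function allele of plp-1, and in 3 libraries of the wild-type strain N2. Every culture held embryos, larvae and adults, was kept at 20 °C and was fed OP50 bacteria. The labels call the samples biological replicates without saying how the cultures were separated, so p-values measure the spread between these samples.

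Hermaphrodite worms make sperm for a short time at the end of larval life and then switch the germline to oocytes. Nematode sperm have no flagellum and crawl on a cytoskeleton of major sperm proteins (MSPs), encoded by the msp genes. The ssp genes encode small proteins related to the MSP domain, the spch genes encode proteins enriched in sperm chromatin, and the smz genes encode PDZ domain proteins named for sperm meiosis. The nspd genes encode very short nematode-specific peptides, and ssq and sss name 2 further sperm-specific classes. In RNA of whole animals, a change in the number of sperm-forming cells and a change in RNA per cell cannot be told apart.

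Library totals ran from 39331848 to 53486099 counts. The transcript of plp-1 itself checked the labels, at 20.4, 17.6 and 23 CPM (counts relative to the library total, scaled by trimmed mean of M-values) in plp-1(ok2155) libraries and 293.3, 430.3 and 379 CPM in wild-type libraries (log2 fold change -4.17, SE 0.28, edgeR adjusted p = 0.00242). Mutant replicate 3 and wild-type replicate 1 stood apart from their groups. Along the leading axis of a principal component analysis, which held 38.8% of the variance, mutant replicate 3 scored 2.4, mutant replicates 1 and 2 scored 79 and 74.2, and the wild-type libraries scored between -69.6 and -33.8. Along the next axis (27.8%) wild-type replicate 1 scored -95.8, against -23.9 to 51.7 for the other libraries.

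Most of these small sperm genes had higher levels in plp-1(ok2155) than in wild-type. The tested protein-coding nspd genes, the ssq and spch genes, sss-1, sss-2, smz-1 and 6 ssp genes had log2 fold changes between 2.19 and 3.90, and the 5 other tested genes between -0.02 and 1.86. No gene of the set passed an adjusted p of 0.05 in edgeR's quasi-likelihood test with the group as its single term. The replicate number was also used as a block, which pairs the libraries of the same number. The mean level of the set did not follow this pairing. With the block 4 genes rose in the gene table: smz-1, sss-2, nspd-6 and nspd-2. In the deposited transcript table the same blocked fit called 0 of them, and 0% of all tested transcripts higher. The adjusted p of these 4 genes in that fit was 0.271 to 0.332. For ssp-37 and nspd-11 the levels of the groups overlapped.

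Of the 35 genes, 30 passed edgeR's filter on low counts, which asked for 0.214 CPM, about 10 counts, in at least 3 libraries. Of these, 6 had no wild-type library at that level and passed through their mutant libraries alone, 11 had 1 or 2 such wild-type libraries, and 13 had all 3. A gene that passes in this way had to differ, so the counts below describe the genes and are not evidence for them. Over all 15090 genes tested, edgeR called 0.265% higher in plp-1(ok2155) and 0.0795% lower, and of the 30 genes it called 0 in either direction. At an unadjusted p under 0.05 it placed 26 of the 30 higher and 0 lower, against 6.36% of all tested genes higher and 3.2% lower. With the replicate block 4 of the 30 were called higher, against 1.03% of all tested genes, and 0 lower, against 0.424%. DESeq2 called 24 higher, against 3.07%, and 0 lower, against 0.663%. In the deposited transcript table edgeR called 0 of the 30 higher, against 0.0438% of all tested transcripts, and placed 25 higher at an unadjusted p under 0.05, against 4.8%. With the replicate block it called 0 of the 30 there in either direction, against 0% of all tested transcripts. In 28 of the 30 every mutant library lay above every wild-type library, which held for 8.75% of all tested genes, and in 0 every mutant library lay below, against 5.49%. The median log2 fold change of the 30 was 2.98, beside -0.03 over all tested genes, and 29 were positive, beside 47.5% of all tested genes. Without the filter, 33 of the 35 had any count, 32 of the 33 were positive and their median was 2.90, beside -0.06 over all 22426 genes with any count.

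**Figure D1:**
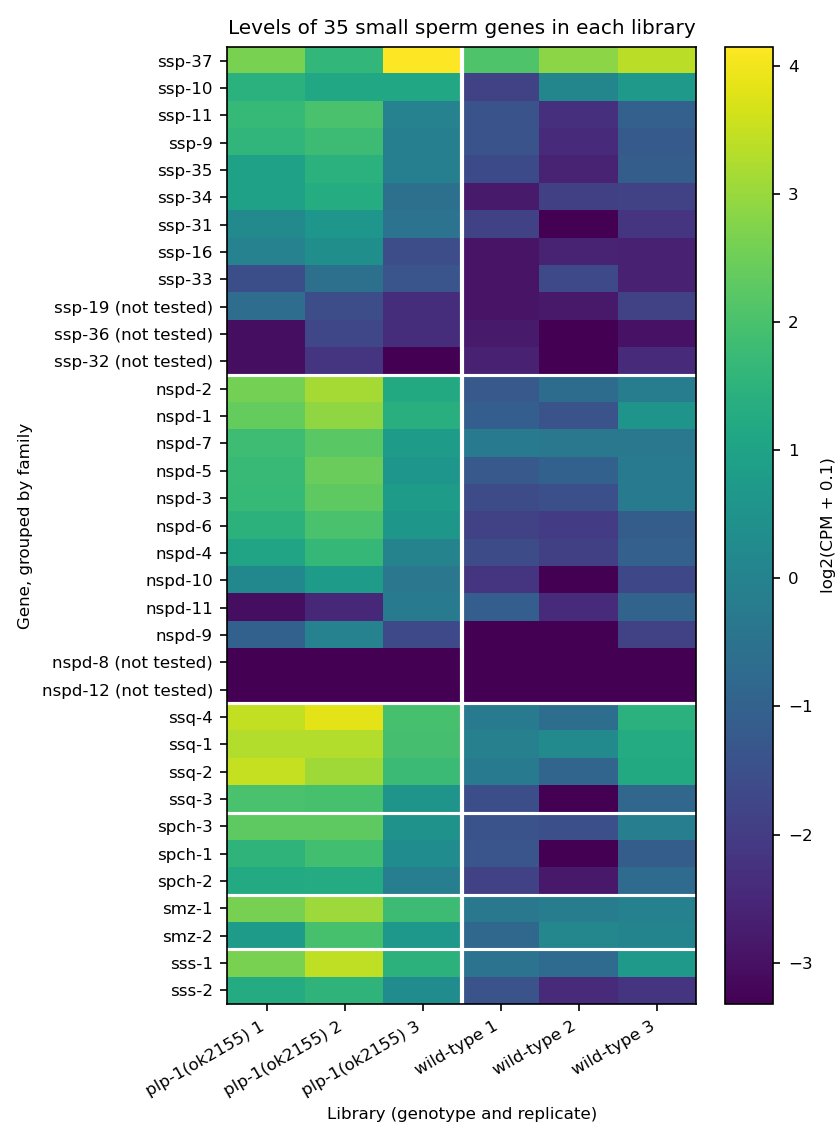
Level of each of the 35 genes (rows, grouped by family) in each library (columns, plp-1(ok2155) left of wild-type) as log2(CPM + 0.1), the colour running from low (dark) to high (bright). Most rows are brighter in the mutant columns, mutant replicate 3 is the dimmest of the mutant libraries for most genes, and ssp-37 is bright in all 6.

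The nspd genes are the shortest of the set. The protein-coding nspd members are single-exon genes without annotated untranslated regions that encode 70 to 73 residues, spread over chromosomes I, II, III and IV. The gene nspd-2 (gene ID 177831, chromosome IV from 9844060 to 9844272 on WBcel235, plus strand) had 5.93, 8.63 and 2.23 CPM in plp-1(ok2155) libraries, against 0.325, 0.528 and 0.78 CPM in wild-type libraries. Its lowest mutant library lay above its highest wild-type library. The log2 fold change was 3.37 (SE 0.64; adjusted p = 0.0987 in edgeR), and the adjusted p was 0.0442 with the replicate block. The gene nspd-1 (chromosome I from 6097579 to 6097791, minus strand) had 5.16, 7.38 and 2.45 CPM in the mutant, against 0.372, 0.275 and 1.35 CPM in wild-type. Wild-type replicate 3 was the highest of its group here, and the log2 fold change of 2.93 (SE 0.74; adjusted p = 0.174 in edgeR) was 3.85 without that library.

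The gene nspd-6 (gene ID 4926899, chromosome IV from 5165511 to 5165726, minus strand) had 2.67, 3.91 and 1.44 CPM in plp-1(ok2155) libraries, against 0.17, 0.148 and 0.36 CPM in wild-type libraries. It had the largest rise of the family that passed a test, a log2 fold change of 3.58 (SE 0.63; adjusted p = 0.0854 in edgeR and 0.0422 with the replicate block). The gene nspd-3, which lies 2470 bases from nspd-6, averaged 3.18 ± 1.55 CPM in the mutant and 0.402 ± 0.275 CPM in wild-type (SD, n = 3 each), and its log2 fold change was 3.01.

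For nspd-7 the mutant libraries held 3.45, 4.62 and 1.66 CPM and the wild-type libraries 0.743, 0.697 and 0.69 CPM. The wild-type values were almost equal, the groups did not overlap, and the log2 fold change of 2.19 (SE 0.51) was the smallest of the protein-coding nspd genes tested. For nspd-5 the mutant libraries held 3.27, 5.34 and 1.42 CPM and the wild-type libraries 0.325, 0.402 and 0.72 CPM, again without overlap. The less abundant nspd-4 averaged 1.97 ± 1.06 CPM in the mutant and 0.264 ± 0.114 CPM in wild-type, and nspd-10 averaged 1.11 ± 0.483 CPM in the mutant and 0.111 ± 0.106 CPM in wild-type (SD, n = 3 each). The 9 protein-coding nspd genes tested had log2 fold changes from 2.19 to 3.58 and edgeR adjusted p from 0.0854 to 0.491. The highest p belonged to nspd-9, which had 72 counts over the mutant libraries and 6 over the wild-type libraries, all 6 in replicate 3. It averaged 0.503 ± 0.35 CPM in the mutant and 0.06 ± 0.104 CPM in wild-type (SD, n = 3 each), a log2 fold change of 3.27 with an SE of 1.34.

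The remaining nspd loci were at 0 or had overlapping groups. The gene nspd-8 on chromosome I and the locus nspd-12 on chromosome V, which RefSeq and Ensembl list as a pseudogene, had 0 counts in all 6 libraries. A count of 0 allows up to 0.0219 CPM over the mutant libraries and 0.0207 CPM over the wild-type libraries, counting error only. The pseudogene nspd-11 on chromosome I had 0.0222, 0.0794 and 0.768 CPM in plp-1(ok2155) libraries, against 0.372, 0.0845 and 0.42 CPM in wild-type libraries. Its groups overlapped and its highest value was in mutant replicate 3, the library that was lowest for most of the family. Its log2 fold change was -0.02 (SE 1.14; adjusted p = 0.997 in edgeR), and its sign turned under several alternatives.

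The ssp family was the least uniform. Its members encode 107 to 112 residues. In 8 of 9 tested members every mutant library lay above every wild-type library, which held for 8.75% of all tested genes. Of these, ssp-16, ssp-31, ssp-33 and ssp-34 passed the filter through their mutant libraries alone and so had to differ in this way. A run of 6 genes, ssp-9, ssp-11, ssp-16, ssp-31, ssp-34 and ssp-35, had log2 fold changes from 3.06 to 3.90 with SE from 0.75 to 0.95 and edgeR adjusted p from 0.113 to 0.225. All of these were scarce in wild-type, with 7 to 36 counts over the 3 wild-type libraries and 111 to 372 over the mutant libraries. The gene ssp-16 (chromosome I from 6102067 to 6102396, plus strand) had the largest fold change of the whole set, with 40, 61 and 10 counts in plp-1(ok2155) libraries and 2, 3 and 2 counts in wild-type libraries.

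The genes ssp-11 and ssp-9 lie on chromosome IV on either side of ssq-2 and share the table's description as class P protein 9/11. The levels of ssp-11 were 3.11, 3.87 and 0.889 CPM in the mutant, against 0.279, 0.106 and 0.39 CPM in wild-type. Those of ssp-9 were 2.91, 3.39 and 0.84 CPM in the mutant, against 0.279, 0.0845 and 0.33 CPM in wild-type. The pair was nearly equal in every library. The labels do not tell how reads of similar copies were shared, so the values of single copies are uncertain, which also applies to the other members of these families.

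The gene ssp-10 (chromosome IV from 9850702 to 9851031, minus strand) differed less, with 2.62, 2.08 and 2.14 CPM in plp-1(ok2155) libraries, against 0.17, 0.972 and 1.56 CPM in wild-type libraries. The mutant libraries were nearly level while the wild-type libraries spread widely below them, and the log2 fold change was 1.35 (SE 0.72; adjusted p = 0.613 in edgeR). It was 0.84 without the lowest wild-type library, replicate 1, and 2.00 without the highest, replicate 3. The gene ssp-33 on chromosome V had a log2 fold change of 1.86 (SE 0.84; adjusted p = 0.543 in edgeR) from 52 counts in the mutant and 14 in wild-type, and 2.96 without wild-type replicate 2, which held 10 of the 14.

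The gene ssp-37 (gene ID 173127, chromosome I from 12561140 to 12561548, minus strand, 2 exons) was the most abundant of the set in wild-type. It had 6.2, 2.98 and 17.6 CPM in plp-1(ok2155) libraries, against 4.15, 7.12 and 10.3 CPM in wild-type libraries. The groups overlapped fully, and the order of the mutant libraries was the reverse of that of most other members: replicate 3 was highest and replicate 2 lowest. The log2 fold change was 0.31 (SE 0.66; adjusted p = 0.915 in edgeR), and -0.70 without mutant replicate 3. Its share of the summed level of the 35 genes was 5.64%, 2.23% and 28.4% in the mutant libraries and 30%, 44.2% and 32.1% in the wild-type libraries. A comparison made after these values were seen showed that its order of libraries, replicate 3 over 1 over 2 in the mutant and 3 over 2 over 1 in wild-type, was that of the summed yolk protein genes.

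The other 3 ssp genes did not pass the filter. The gene ssp-19 on chromosome I had 40 counts over the mutant libraries and 10 over the wild-type libraries. The genes ssp-36 and ssp-32 on chromosome IV had 15 and 7 counts in the mutant and 4 and 7 in wild-type. Both lie close to an msp gene. Of these, ssp-32 is 404 bases from msp-77, which held 824 counts over the mutant libraries and 86 over the wild-type libraries. The distance of ssp-36 from msp-79 is 434 bases, and msp-79 held 817 and 88. The other members within 10 kb of an msp gene were nspd-2, sss-1 and ssp-10. They lie 2137 bases from msp-56, 934 from msp-77 and 8779 from msp-56, and averaged 5.6, 6.53 and 2.28 CPM in the mutant. Whether closeness to an msp gene goes with level was not tested.

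**Figure D2:**
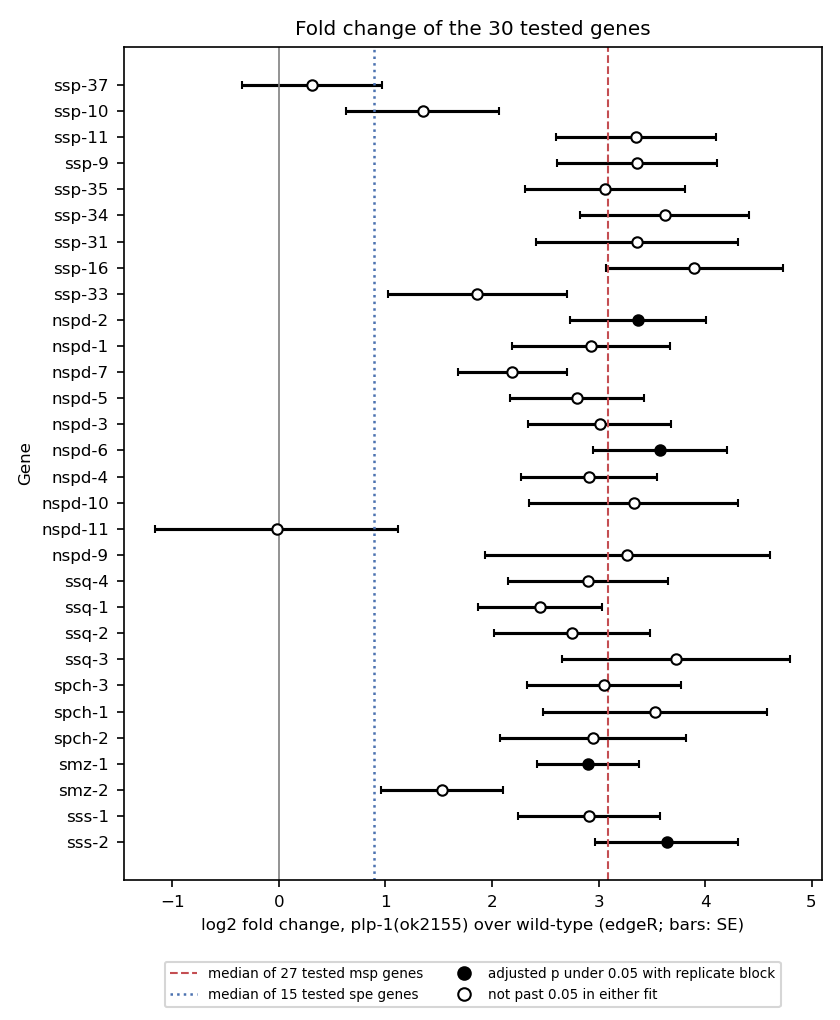
Log2 fold change of plp-1(ok2155) over wild-type for the 30 tested genes from edgeR (points, with bars for SE). Filled points mark the 4 genes called once the replicate block was added to the fit of the gene table. In the transcript table the blocked fit called none of them, and 0% of all tested transcripts higher. Lines mark the medians of the msp and spe genes. Most points lie close to the msp median of 3.09, while ssp-37 and nspd-11 lie near 0 and ssp-10, ssp-33 and smz-2 between.

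The ssq genes, of 290 to 405 residues and all on chromosome IV, had the highest mean summed level in the mutant, 28 ± 13.6 CPM, close to 26.9 ± 13.4 CPM for the nspd genes (SD, n = 3 each). Their sum was 35.6, 36.1 and 12.2 CPM in plp-1(ok2155) libraries, against 2.6, 2.07 and 7.59 CPM in wild-type libraries. A split of reads among copies within the family does not change this sum. Reads dropped, counted more than once or shared with genes outside the family would change it. The sum did not overlap between the groups. The gene ssq-4 (chromosome IV from 5016509 to 5017724, plus strand) had 10.8, 14.2 and 3.84 CPM in the mutant, against 0.743, 0.55 and 2.61 CPM in wild-type. Its log2 fold change was 2.90 (SE 0.75; adjusted p = 0.185 in edgeR), and 3.80 without wild-type replicate 3. It shares 651 exonic bases with T28H11.7 on the opposite strand, which had a log2 fold change of 3.80 (SE 0.73; adjusted p = 0.0998 in edgeR) from 284 counts in the mutant and 19 in wild-type. The labels name a stranded kit but not how strand entered the counting, so reads of this overlapping pair may not be separable.

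The gene ssq-2 had 11.1, 8.44 and 3.29 CPM in plp-1(ok2155) libraries, against 0.759, 0.444 and 2.22 CPM in wild-type libraries. The gene ssq-1 had 9.69, 9.65 and 3.72 CPM in the mutant, against 0.851, 1.08 and 2.31 CPM in wild-type. The gene ssq-3 had 3.93, 3.83 and 1.37 CPM in the mutant, against 0.248, 0 and 0.45 CPM in wild-type. In all of them mutant replicate 3 was the lowest mutant library and wild-type replicate 3 the highest wild-type library. The groups did not overlap, and every mutant library lay above every wild-type library in 8.75% of all tested genes. The log2 fold changes were 2.75 for ssq-2, 2.45 for ssq-1 and 3.73 for ssq-3, and the 4 ssq genes had edgeR adjusted p between 0.141 and 0.238. The value of ssq-2 was 3.56 without wild-type replicate 3, and that of ssq-3 was 3.07 without wild-type replicate 2 and 4.41 without wild-type replicate 3.

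The spch genes, which encode sperm chromatin proteins of 197 to 203 residues, had low levels that differed in the same way. The gene spch-3 (chromosome I from 6099008 to 6099672, plus strand), between nspd-1 and ssp-16, had 4.85, 4.76 and 1.34 CPM in plp-1(ok2155) libraries, against 0.279, 0.254 and 0.81 CPM in wild-type libraries. The gene spch-1 (chromosome IV from 10110868 to 10111510, minus strand) had 2.78, 3.63 and 1.13 CPM in the mutant, against 0.294, 0 and 0.36 CPM in wild-type. The gene spch-2 on chromosome I had 2.29, 2.34 and 0.816 CPM in the mutant, against 0.17, 0.0423 and 0.51 CPM in wild-type. None of the 3 overlapped between groups, and every mutant library lay above every wild-type library in 8.75% of all tested genes. Their log2 fold changes were 3.05 for spch-3, 3.53 for spch-1 and 2.95 for spch-2, with SE of 0.72, 1.05 and 0.87 and edgeR adjusted p between 0.141 and 0.261. Leaving out wild-type replicate 2 gave 2.71 for spch-3, 2.86 for spch-1 and 2.39 for spch-2, and leaving out wild-type replicate 3 gave 3.68, 3.89 and 3.92 for the same genes.

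The smz genes differed from each other in size of change. The gene smz-1 (gene ID 178197, chromosome IV from 12455192 to 12456117, plus strand, 3 exons) had 6.02, 8.14 and 3.41 CPM in plp-1(ok2155) libraries, against 0.697, 0.782 and 0.87 CPM in wild-type libraries. Its wild-type libraries were close together and far below the lowest mutant library. The log2 fold change was 2.90 (SE 0.48), with the smallest edgeR adjusted p of the set at 0.0694, and 0.0261 with the replicate block. The gene smz-2 (chromosome I from 6872768 to 6873684, minus strand), which encodes a protein of the same length of 274 residues, had 1.6, 3.83 and 1.49 CPM in the mutant, against 0.48, 0.993 and 0.929 CPM in wild-type. Mutant replicate 2 stood above its other libraries, and the log2 fold change was 1.53 (SE 0.57; adjusted p = 0.428 in edgeR), or 0.95 without that library. Whether the change differed between smz-1 and smz-2 was not tested.

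Of the sss genes, sss-1 is coding and sss-2 is listed as a pseudogene in RefSeq and Ensembl. The gene sss-1 (chromosome IV from 9892769 to 9893697, minus strand) had 6.2, 10.7 and 2.71 CPM in plp-1(ok2155) libraries, against 0.619, 0.507 and 1.5 CPM in wild-type libraries. Its groups did not overlap, and its log2 fold change was 2.91 (SE 0.67; adjusted p = 0.136 in edgeR). The locus sss-2 (gene ID 3565447, chromosome V from 14346059 to 14346967, plus strand) had 2.31, 2.82 and 1.13 CPM in the mutant, against 0.279, 0.0845 and 0.12 CPM in wild-type. Its difference on the log2 scale was 3.64 (SE 0.67, edgeR adjusted p = 0.0937; with the replicate block 0.032), and 4.33 without wild-type replicate 1, its highest wild-type library. The sequences of sss-1 and sss-2 were not compared, so whether they share reads is not known.

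The deposited FPKM scale divides by length, so levels of different genes can be set side by side on it, within limits. Its lengths are coding lengths, 213 to 222 bases for the protein-coding nspd genes and 873 to 1218 for the ssq genes. How reads of similar copies were shared is not known. Differences between short and long genes on this scale are therefore uncertain. In the mutant nspd-2 averaged 25.9 ± 16 FPKM, ssp-37 25.1 ± 21.3 FPKM and nspd-1 23 ± 12.4 FPKM (SD, n = 3 each), and these did not differ beyond their spread. The other protein-coding nspd genes tested averaged 2.29 to 15.2 FPKM in the mutant. Among the longer genes were ssq-1 at 8.58 ± 3.96 FPKM, ssq-4 at 8.42 ± 4.92 FPKM, sss-1 at 7.71 ± 5.1 FPKM, smz-1 at 6.95 ± 3.15 FPKM and spch-3 at 5.81 ± 3.24 FPKM (SD, n = 3 each). In wild-type ssp-37 stood at 19.3 ± 5.31 FPKM (SD, n = 3), above the next genes, nspd-7 at 3.16 ± 0.727 FPKM and nspd-1 at 2.73 ± 2.07 FPKM. The tested spch genes averaged 0.344 to 0.637 FPKM in wild-type.

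**Figure D3:**
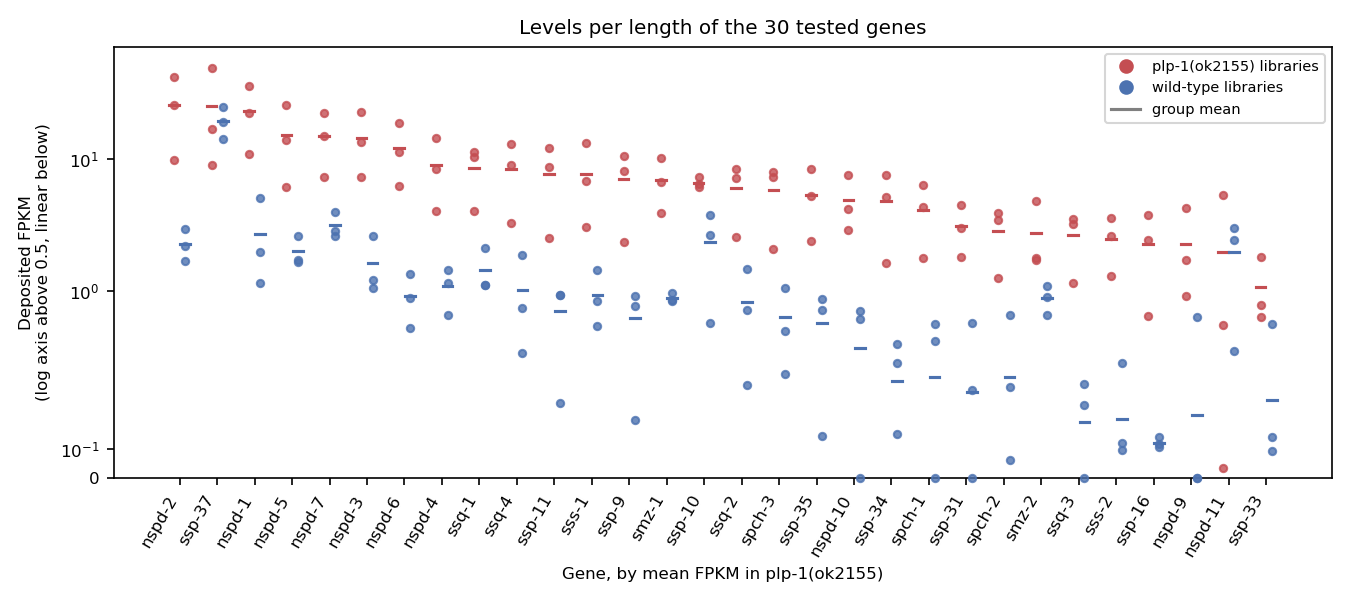
Deposited FPKM of each of the 30 tested genes in each library (points, with plp-1(ok2155) left of wild-type; bars are group means), ordered by the mutant mean, on an axis that is logarithmic above 0.5 and linear below. The genes nspd-2, ssp-37 and nspd-1 have the highest means in the mutant, and ssp-37 is the only gene above 10 FPKM in wild-type.

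Within each group most of the tested members had the same highest library. Among the mutant libraries, replicate 2 was highest for 23 of the 30 tested genes and replicate 3 lowest for 26, and the median ratio of replicate 2 to replicate 3 was 2.87. Among the wild-type libraries, replicate 3 was highest for 24, and replicate 2 was lowest for 17 and replicate 1 for 12. How often all tested genes had these orders was not counted. The mean log2 CPM of the 30 genes was 1.31, 1.70 and 0.44 in plp-1(ok2155) libraries, against -1.64, -2.03 and -0.73 in wild-type libraries. The summed level of the 35 genes was 109.9, 133.7 and 61.9 CPM in the mutant libraries, against 13.8, 16.1 and 32.2 CPM in the wild-type libraries. The lowest mutant sum was 1.92 times the highest wild-type sum. Leaving out ssp-37, the sums were 103.7, 130.7 and 44.3 CPM in the mutant and 9.68, 9 and 21.9 CPM in wild-type. With 1 library left out, edgeR called 0 members higher each time, and at an unadjusted p under 0.05 between 24 and 27 of the 30 or 31 members then tested were higher. Of all genes it then called 0.0322%, 0.0194% and 0.0255% higher without mutant replicates 1, 2 and 3, and 0.116%, 0% and 0.00633% without wild-type replicates 1, 2 and 3. At the unadjusted threshold these shares were 4.96%, 4.48% and 7.17% without mutant replicates 1, 2 and 3, and 8.16%, 5.7% and 5.43% without wild-type replicates 1, 2 and 3.

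Several members sit in shared stretches of the genome. Of the 35 genes 17 lie on chromosome IV, 11 on I, 4 on V, 2 on II, 1 on III and 0 on X, while X holds 13.9% of the protein-coding genes in the table and IV 16.2%. Another member lay within 10 kb of 13 of the 35. On chromosome I, nspd-1, spch-3 and ssp-16 follow each other with gaps of 1217 and 2395 bases. On chromosome IV, ssp-9, ssq-2 and ssp-11 have gaps of 1477 and 1989 bases, ssp-10 and ssq-1 lie 1558 bases apart, and nspd-2 lies 2137 bases from msp-56. All 19 single-exon protein-coding members lack annotated untranslated regions, and 1 of the 35 genes, ssq-4, has exons that overlap another gene.

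Other sperm genes were compared from lists of names, counted over all genes tested and with no members among them. Of 35 msp genes 27 were tested: edgeR called 0 and placed 27 higher at an unadjusted p under 0.05, 2 were called with the replicate block, DESeq2 called 26, and the median log2 fold change was 3.09. The msp genes with the smallest p, msp-55, msp-49 and msp-57, had log2 fold changes of 3.33, 2.75 and 3.23. Of 24 spe genes, named for defects in sperm formation, 15 were tested, edgeR called 0, 6 were higher at an unadjusted p under 0.05, DESeq2 called 2, and the median was 0.89. This median was 1.48 without mutant replicate 3, 1.43 without wild-type replicate 1 and 1.33 without the filter. In 8 of the 15 every mutant library lay above every wild-type library, against 8.75% of all tested genes. Among these spe-12 passed the filter through its mutant libraries alone. Of the 15 tested spe genes 12 were positive, against 47.5% of all tested genes. In this list spe-12, spe-11 and spe-41 had log2 fold changes of 3.65, 2.93 and 1.56. In a short list of other sperm genes 7 of 9 tested genes were higher at an unadjusted p under 0.05, with a median of 3.02; edgeR called 0 and DESeq2 6. Its first genes were msd-3, msd-2 and msd-1, which encode further MSP domain proteins, at 3.43, 3.27 and 3.60. The gap between the small families and the spe genes was not tested.

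Among 7 genes listed as regulators of sperm gene expression, of which spe-44 is also a spe gene, edgeR called 0 and DESeq2 3, and 4 were higher at an unadjusted p under 0.05. Their median was 1.95, and 1.15 without mutant replicate 1. Of the 7, 5 had positive log2 fold changes, and the lowest was -0.41. Their summed level was 48.4 ± 15.6 CPM in the mutant and 46 ± 8.71 CPM in wild-type (SD, n = 3 each), with overlapping groups. The 4 at the unadjusted threshold include alg-4 and alg-3, Argonautes of spermatogenesis, at log2 fold changes of 3.29 and 3.35. They also include the sperm histone variant gene htas-1 at 3.12. The other nematode-specific peptide families, nspa, nspb, nspc and nspe, were counted together, and their difference from the nspd genes was not tested. Of the 52 genes 27 were tested, with a median of 0.24 that was -0.10 without mutant replicate 3; edgeR called 0, DESeq2 3, and 3 were higher at an unadjusted p under 0.05. These were nspa-1, nspa-5 and nspa-3, at 2.70, 2.36 and 2.54, within the range of the nspd genes. The 10 non-member genes whose log2 CPM followed the mean of the 30 tested genes most closely over the 6 libraries had Pearson correlations from 0.9954 to 0.9996, given as a description. They included msd-2, msd-1 and msrp-1, and, known by sequence names alone, F27C1.1, T23F11.2, F26B1.8, C48E7.7, Y59E9AL.2, F34D10.8 and Y69E1A.8. All of these correlations share the difference between the groups.

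Markers of other tissues and stages were read in the same libraries. Of 13 genes of the male soma and seminal fluid, cwp-3 and dmd-3 were at 0 in every library, the male neuron genes pkd-2 and lov-1 held 2 and 0 counts over the plp-1(ok2155) cultures and 3 and 6 over the wild-type cultures, and the list summed to 3.51 to 3.71 CPM in plp-1(ok2155) and 2.18 to 4.6 CPM in wild-type. Of its 5 tested genes edgeR and DESeq2 called 0, and 1 was higher at an unadjusted p under 0.05, mab-3, at a log2 fold change of 1.64 (edgeR adjusted p = 0.522); her-1 and try-5 stood at 1.23 and -0.65. The median of the 5 was 0.31, between 0.12 and 0.60 with 1 library left out, and -0.68 for the list without the filter. Oocyte and maternal genes, 23 in all, had a median of 0.51 (0.20 without mutant replicate 1), with edgeR and DESeq2 calling 0 and 2 higher at an unadjusted p under 0.05. Their sum ranged from 5905 to 12592 CPM in the mutant and from 6352 to 7590 CPM in wild-type, and mex-5, mex-3 and mex-1 stood at 1.12, 0.91 and 0.81. The 8 meiosis genes had a median of -0.03 with 0 called by edgeR or DESeq2 and 0 at an unadjusted p under 0.05, and rec-8, him-8 and syp-1 stood at 0.31, -0.30 and 0.21.

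Genes of the adult cuticle and of yolk were read in the same way. Of 6 collagens of the adult cuticle, 3 were higher at an unadjusted p under 0.05, edgeR called 0, DESeq2 3 and the replicate block 2, and the median was 2.74. The median was 0.92 without mutant replicate 3, 3.59 without wild-type replicate 3 and 1.86 with the replicate block, and the summed level was 732.9 ± 174 CPM in the mutant and 830.7 ± 444.1 CPM in wild-type (SD, n = 3 each). The 2 called with the block were col-71, with 9.71 to 40 CPM in plp-1(ok2155) libraries, against 1.3 to 3.66 CPM in wild-type libraries, and bli-1, with a log2 fold change of 3.32. The gene bli-2, needed like bli-1 for the struts of the adult cuticle, stood at 3.28 (edgeR adjusted p = 0.265). The 6 yolk protein genes had a median of -0.58 (0.05 when wild-type replicate 3 was left out and -1.04 when wild-type replicate 1 was), with 0 called by edgeR or DESeq2 and 0 at an unadjusted p under 0.05, and vit-4, vit-3 and vit-1 stood at -0.87, -0.76 and -0.72. Their sum was 64240, 44681 and 94477 CPM in the mutant and 37125, 88053 and 159710 CPM in wild-type. The part of the age make-up of the cultures in the sperm gene values was not tested.

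**Figure D4:**
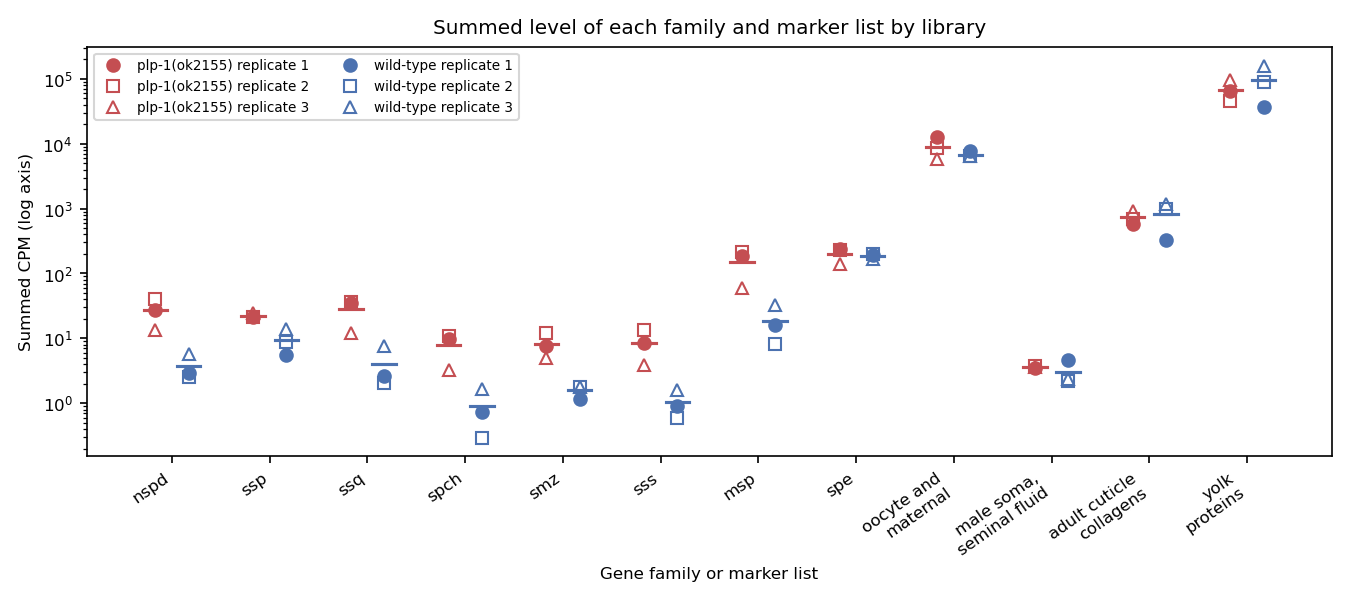
Summed CPM of the 6 families and of 6 comparison lists in each library on a log axis, plp-1(ok2155) left of wild-type, with marker shapes for replicates 1 to 3 and bars for group means. All 6 families and the msp genes lie higher in every mutant library than in every wild-type library, and the male, spe, oocyte, adult cuticle and yolk sums overlap between groups.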

How the data were processed

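Poly(A)-selected RNA of 3 plp-1(ok2155) and 3 wild-type cultures was sequenced from a stranded kit, per the labels' protocols. Per the submitters' processing notes the tools include the aligners Bowtie2 2.3.4.1 and HISAT2 2.1.0, StringTie 1.3.4d, DESeq2, Trimmomatic 0.38 and FastQC 0.11.7, with no role or order given. The authors deposited estimated counts and FPKM values per gene and per transcript on WBcel235. Checked against FPKM and length, the deposited estimated counts of transcripts, from 1 to 50, were whole numbers rounded up within 0.02 counts, so very low estimates read as at least 1, and lengths are coding lengths. FPKM is used as the authors deposited it, for levels only.

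Counts entered edgeR 4.0.16 (R 4.3.3) as deposited, after 24 entries without a symbol (0.0024% to 0.0246% of a library) were left out. Genes were kept by filterByExpr and scaled by TMM. The quasi-likelihood test had the group as its single term, with Benjamini-Hochberg adjustment over 15090 genes and a threshold of 0.05. Each SE is the log2 fold change divided by the square root of F. Log2 CPM used a prior count of 2. DESeq2 1.42.0, other scalings, no filter, the transcript table, the replicate block and leaving out each library were alternatives. The procedure was also run on simulated data. The simulated libraries varied less than these and none stood apart from its group. That run therefore cannot tell how the procedure performs on these libraries. Floors are 3 counts over a group and cover counting error only.

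Libraries with the same replicate number had correlations of 0.28, 0.21 and 0.36 between their deviations of log2 CPM from the group means, over all tested genes. Those with different numbers had correlations from -0.34 to -0.04. Deviations within a group are tied by its mean, so these correlations are not independent of each other. On these values the numbers were taken as pairing the libraries in the blocked fit. The mean log2 CPM of the tested members did not follow this pairing. Replicate 2 was the highest mutant library (1.70) and the lowest wild-type library (-2.03). Replicate 3 was the lowest mutant library (0.44) and the highest wild-type library (-0.73). The main test, with the group as its single term, does not use this pairing.

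Every member is named. Values by library are given for up to 4 members per family with the highest mean CPM and for those called in the test with or without the block, and up to 3 genes with the smallest p stand for each comparison list. The blocked fit of the transcript table was an alternative chosen after seeing the data. Values of nspd-9, nspd-11 and ssp-16, and the neighbours of members, were added after the values were seen. The members and lists were chosen with earlier results of these data known. Gene positions, strand, exons and biotypes are 1-based WBcel235 positions from the gene table, Ensembl and RefSeq. No sequence of the members was used here.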

Additional observations from a re-analysis of the deposited data

How the results depend on the processing

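With edgeR, 0 members were called higher under each scaling, without the filter, in the transcript table and with any library left out. With the replicate block 4 were called, and with DESeq2 24. Over all tested genes the shares called higher were 0.265% in the main fit, 1.03% with the replicate block and 3.07% with DESeq2. They were 0% to 0.116% with 1 library left out, and 0.0438% of all tested transcripts in the transcript table. Shares over all genes for the other scalings and without the filter are not given. The transcript table and the replicate block together were an alternative chosen after seeing the data. That fit called 0 members higher, and 0% of all tested transcripts. The 4 calls (smz-1, nspd-2, nspd-6 and sss-2) did not hold there, with adjusted p of 0.271 to 0.332. Each of the 4 has 1 transcript, and gene counts equal the sum over transcripts, so their counts were the same in both tables. The cause of the change in adjusted p was not tested. The median log2 fold change of the 30 tested genes, 2.98, was 2.98 with DESeq2 size factors, 2.94 with upper-quartile scaling, 3.08 without scaling, 3.10 with the replicate block and 2.63 to 3.56 with 1 library left out, the last without wild-type replicate 3. Leaving out 1 library moved the fold change of 16 of the 30 genes by over 1.5 times. The fold changes of 28 of the 30 were positive in every fit with 1 library left out. The exceptions were ssp-37, between -0.70 (without mutant replicate 3) and 0.72, and nspd-11, between -2.53 and 0.53. The main -0.02 of nspd-11 was 0.01 with DESeq2 size factors and in the transcript table, 0.04 with upper-quartile scaling, and 0.02 without the filter and with DESeq2; the cause was not tested. The cause of the difference in calls between edgeR and DESeq2 was not tested. Wild-type levels of 3 or fewer counts per library, as in ssp-16, limit the precision of single fold changes. Results for family sums kept their direction under each scaling and with each library left out.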
